A study of Rattus norvegicus with 6 samples.

Results

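The subunits of the GABA-A receptor were examined in the whole hippocampus of 2 rat lines. The members were 7 genes (Gabra2, Gabra4, Gabra5, Gabrb1, Gabrb2, Gabrg1 and Gabrd), and every probe set whose platform annotation names 1 of them and no other gene was taken, which gave 11 of the 8799 probe sets on the array. Gabra4, Gabra5, Gabrb2 and Gabrd have 2 probe sets each, and the other 3 genes have 1. The Syracuse High Avoidance (SHA) line and the Syracuse Low Avoidance (SLA) line are named for how well their rats learn two-way active avoidance, a task in which a warned animal avoids a shock by crossing a box. Each line is represented by 3 pools, each of hippocampi from 3 rats killed 2 weeks after that test, with 1 pool to an array of the 1-colour kind. Rats of both lines had been tested, so a difference present before testing and an effect of testing cannot be told apart. The labels give neither age nor sex. Nothing in the labels says that a rat entered more than 1 pool, so n = 3 pools per line, and the p-values measure the spread between these pools, which may be partly technical.

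GABA-A receptors are the chloride channels through which GABA inhibits neurons at fast synapses and, at lower concentrations outside synapses, as a standing tonic current. A receptor is built from alpha and beta subunits, which together form the GABA binding site, and usually from a gamma or a delta subunit as well. In the hippocampus, the alpha4 and delta subunits are known from receptors outside synapses on granule cells of the dentate gyrus. The alpha5 subunit is known from receptors, largely outside synapses, of pyramidal cells.

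Values below are intensities on the linear scale that the authors deposited, with mean ± SD over 3 pools. A difference is the mean log2 value of SHA minus that of SLA, given with its standard error and tested with limma over 6555 probe sets with Benjamini-Hochberg adjustment. No member passed an adjusted p of 0.05, nor did any other probe set on the array (0% called). Adjusted p was 1.00 for each of the 10 members tested. At an unadjusted p under 0.05, limma called 1 member, against 98 of all probe sets tested (1.5%). That member was higher in SHA, as were 24 of the 98, which is 0.366% of all probe sets tested. Those lower in SHA came to 1.13%. The differences of the members are therefore given as measured values, none of which is past the threshold.

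Gabra2, Gabra4, Gabra5, Gabrb1 and Gabrb2 lay on average higher in SHA than in SLA on each of their tested probe sets. Gabrg1 and Gabrd lay lower. Of the 11 member probe sets 8 were higher in SHA, and of the 10 tested 7, where 48.1% of all probe sets tested were higher. The median difference of the 10 tested was 0.45, and that of all probe sets tested was -0.01. For 2 members, 1 probe set each of Gabra4 and Gabra5, the SHA pools lay wholly above the SLA pools. This held for 2.01% of all probe sets tested, and the pools did not overlap in either direction for 5.66%.

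The genes of the members are not spread evenly over the genome. In the RefSeq gene table of assembly GRCr8, Gabrb1, Gabra4, Gabra2 and Gabrg1 lie together on chromosome 14, where only Cox7b2 stands among them as a protein-coding gene. Gabra5 lies on chromosome 1 next to Gabrg3, Gabrb2 on chromosome 10 next to Gabra6, and Gabrd on chromosome 5 apart from other subunit genes. Promoter windows of 300 bases (250 before to 50 after the start that the table uses) were listed for 6 of the 7 genes. The windows of Gabra4, Gabra5, Gabrb1 and Gabrb2 are shown because these genes lay higher in SHA on each of their tested probe sets. They are read 5′ to 3′ on the gene's strand in GRCr8, from chr14:36944497-36944796 on the plus strand for Gabra4, chr1:117516557-117516856 on the minus strand for Gabra5, chr14:36902844-36903143 on the minus strand for Gabrb1 and chr10:27439543-27439842 on the plus strand for Gabrb2. Capitals mark matches to a GC box (GGGCGG) or to the NRF-1 motif (GCGCA, any base, then GCGC) on either strand.
Gabra4: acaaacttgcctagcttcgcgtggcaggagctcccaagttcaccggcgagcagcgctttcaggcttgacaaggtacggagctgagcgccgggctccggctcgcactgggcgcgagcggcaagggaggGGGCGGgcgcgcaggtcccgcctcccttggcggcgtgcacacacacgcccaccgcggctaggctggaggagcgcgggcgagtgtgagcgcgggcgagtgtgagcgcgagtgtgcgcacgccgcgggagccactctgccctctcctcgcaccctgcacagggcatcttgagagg
Gabra5: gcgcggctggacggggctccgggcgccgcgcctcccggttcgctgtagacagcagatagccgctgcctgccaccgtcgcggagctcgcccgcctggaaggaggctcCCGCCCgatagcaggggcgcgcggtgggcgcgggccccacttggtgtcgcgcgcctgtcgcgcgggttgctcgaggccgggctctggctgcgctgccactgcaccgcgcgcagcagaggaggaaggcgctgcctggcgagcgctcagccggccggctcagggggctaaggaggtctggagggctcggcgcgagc
Gabrb1: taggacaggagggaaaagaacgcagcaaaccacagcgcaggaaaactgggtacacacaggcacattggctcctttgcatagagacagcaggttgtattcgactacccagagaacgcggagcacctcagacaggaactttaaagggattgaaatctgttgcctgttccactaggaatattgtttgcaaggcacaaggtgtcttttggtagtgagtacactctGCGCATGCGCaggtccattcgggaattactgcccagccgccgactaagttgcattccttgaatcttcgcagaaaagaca
Gabrb2: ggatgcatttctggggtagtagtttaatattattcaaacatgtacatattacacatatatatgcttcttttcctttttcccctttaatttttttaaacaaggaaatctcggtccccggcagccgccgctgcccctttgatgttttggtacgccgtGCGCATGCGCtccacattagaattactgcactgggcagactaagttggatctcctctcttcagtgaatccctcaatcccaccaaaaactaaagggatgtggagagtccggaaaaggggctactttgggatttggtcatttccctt
The alpha4 and alpha5 windows are rich in G and C, at 70.7% and 76.3%, and each holds 1 GC box. The windows of both beta subunits hold 44.0% (Gabrb2) and 49.3% (Gabrb1) and have no GC box, but each has 1 match to the NRF-1 motif, with the same letters in both. That motif occurred in 4.25% of the 33469 promoter windows in the table, and the GC box in 33.1%. Gabrd has 4 GC boxes, some of them overlapping, at 73.7% G and C, and Gabrg1 has neither motif. No window of the 6 held TATAAA, present in 14.2% of all windows, or the cAMP response element TGACGTCA, present in 1.83%. The motifs were chosen after the sequences were seen, the 2 motifs marked do not overlap each other in these windows, and a match describes letters only.

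Pools of 1 line also differed among themselves, partly by their number, which touches each result below. Both lines have pools numbered 1, 2 and 3, a number the labels do not explain. Across probe sets, the departures of pools from their line's mean correlated at 0.44, 0.68 and 0.13 between pools of the same number. Pairs of unlike number gave -0.56 to 0.16. The 0.16 was between SHA pool 3 and SLA pool 1, above the 0.13 of number 3. For 7 of the 11 member probe sets pool 1 was the lowest pool in both lines, against 22.8% of all probe sets tested. SLA pool 1 was the lowest of the 6 pools for 6 members, against 24.5% of all probe sets tested. The hybridisation controls (biotin operon and Cre probe sets) had geometric mean intensities of 5458, 1121 and 2279 in SHA pools 1, 2 and 3 and of 12282, 640 and 1564 in SLA pools 1, 2 and 3, highest at number 1 in either line. Antisense probe sets of Gapdh and beta-actin followed the number too, with geometric means of 1352, 30.1 and 365 in SHA and 1432, 21.3 and 219 in SLA. The log2 ratio of 3′ to 5′ probe sets was 0.07, 0.20 and 0.33 in SHA and -0.020, 0.09 and 0.43 in SLA for Gapdh. For beta-actin it was 0.79, 0.61 and 0.57 in SHA and 0.41, 0.57 and 0.59 in SLA. The part of these controls in the subunit values was not tested.

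Among the alpha subunits, the largest difference between the lines was that of Gabra4, with 1 probe set of Gabra5 close to it. On probe set L08493cds_s_at it read 194.9, 193.1 and 294.0 in SHA pools 1, 2 and 3, and 34.4, 176.6 and 162.6 in SLA pools 1, 2 and 3. The lowest SHA pool lay above the highest SLA pool, but by little, and SLA pool 1 lay far below the other 5. Means were 227 ± 57.7 in SHA and 125 ± 78.4 in SLA, a difference of 1.16 ± 0.60 or 2.24-fold (limma, unadjusted p = 0.084, 95% interval -0.19 to 2.51). The alpha4 subunit carries receptors that classical benzodiazepines do not act on. Between pools of the same number the difference was 2.50 for number 1, 0.13 for number 2 and 0.85 for number 3. Without SLA pool 1 it was 0.40. The second probe set of Gabra4, S55933_i_at, was the dimmest member, with 5.3, 29.6 and 40.3 in SHA and 13.8, 26.6 and 4.0 in SLA. It fell under the filter on dim probe sets and was not tested, and 2 of its values lay under the floor of 8.9. Its pools overlapped, and the size of its difference moved with the floor, from 0.27 at the 25th percentile to 0.70 at 1 intensity unit.

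Gabra5, whose subunit is concentrated in the hippocampus, had an unadjusted p under 0.05 on 1 of its 2 probe sets. It was the only such member gene with all pools in the fit and the pool number not a block. That probe set, L08494cds_s_at, read 107.7, 113.8 and 180.2 in SHA and 91.9, 64.5 and 34.1 in SLA. No SHA pool was as low as any SLA pool, and here SLA pool 3, not pool 1, was the lowest. Means were 134 ± 40.2 in SHA and 63.5 ± 28.9 in SLA, a difference of 1.15 ± 0.50 or 2.22-fold (limma, unadjusted p = 0.045, 95% interval 0.03 to 2.27). Within the numbers it was 0.23, 0.82 and 2.40, and without SLA pool 3 it was 0.76. The unadjusted p was 0.016 without SLA pool 1, but 0.058 to 0.166 without any other single pool and 0.058 with dim probe sets kept in the limma fit. The brighter probe set of the gene, X51992_at, read 334.6, 471.1 and 433.1 in SHA and 157.5, 393.1 and 329.9 in SLA. Its lines overlapped, since SHA pool 1 lay below SLA pool 2. Its difference was 0.58 ± 0.36 (limma, unadjusted p = 0.14), with 1.09, 0.26 and 0.39 within the numbers and 0.18 without SLA pool 1. Both probe sets of Gabra5 thus lay higher in SHA within every number, though the pool that set the size of the gap differed between them.

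Gabra2, the alpha subunit known from synapses on the axon initial segment of pyramidal cells, followed the pool number more than the line. L08491cds_at read 153.4, 322.7 and 214.4 in SHA and 75.4, 337.1 and 157.1 in SLA. The highest value of the 6 came from SLA pool 2 and the lowest from SLA pool 1. The difference was 0.47 ± 0.53 (limma, unadjusted p = 0.40, 95% interval -0.73 to 1.67), and it was -0.066 without SLA pool 1.

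Both beta subunits were among the brightest members. Beta subunits form part of the GABA binding site and are needed for receptors to reach the cell surface. Gabrb1, on X15466cds_at, read 404.0, 655.2 and 599.4 in SHA and 292.6, 566.9 and 393.3 in SLA. In each number the SHA pool lay above its SLA counterpart, by 0.47, 0.21 and 0.61, while the lines as a whole overlapped. The difference was 0.43 ± 0.31 (limma, unadjusted p = 0.21, 95% interval -0.28 to 1.13), with means of 553 ± 132 in SHA and 418 ± 139 in SLA. It was 0.20 without SLA pool 1.

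Gabrb2, the beta subunit of the most common receptor type of the brain, gave the brightest probe set. On rc_AA891476_at it read 359.0, 753.9 and 603.5 in SHA and 244.7, 625.4 and 564.2 in SLA. Pool 1 was the lowest in both lines, and the pools of the lines interleaved. The difference was 0.31 ± 0.41 (limma, unadjusted p = 0.47, 95% interval -0.61 to 1.22), and it was -0.12 without SLA pool 1. The other probe set, X15467cds_at, was on average 10.5 times dimmer over the 6 pools, with 40.7, 64.8 and 74.6 in SHA and 19.6, 41.4 and 59.6 in SLA. Pool 1 was again the lowest of each line, and the difference was 0.67 ± 0.61 (limma, unadjusted p = 0.30). It was 0.23 without SLA pool 1 and 1.03 without SLA pool 3. Within the numbers, both probe sets of Gabrb2 lay higher in SHA each time, by 0.55, 0.27 and 0.10 on the brighter and by 1.05, 0.65 and 0.32 on the dimmer.

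Gabrg1, a gamma subunit whose receptors respond weakly to classical benzodiazepines, varied widely within both lines. X57514_at read 85.8, 349.0 and 190.9 in SHA and 122.9, 423.4 and 177.3 in SLA. Its pools had the same order by number in both lines, with pool 2 highest and pool 1 lowest. The difference was -0.23 ± 0.58 (limma, unadjusted p = 0.70, 95% interval -1.54 to 1.08).

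Gabrd, the subunit of tonic receptors on granule cells, was the steadiest member on both probe sets. L08496cds_s_at read 299.2, 303.8 and 305.3 in SHA and 353.8, 349.1 and 289.2 in SLA. M35162_at read 182.9, 186.2 and 190.1 in SHA and 184.2, 198.0 and 213.7 in SLA. The SHA pools of each probe set lay close together, inside the range of the SLA pools on the first and at its low end on the second. Differences were -0.12 ± 0.24 with a 95% interval of -0.67 to 0.43 on the first, and -0.09 ± 0.28 with an interval of -0.72 to 0.54 on the second (limma, unadjusted p = 0.63 and 0.76). Gabra4, whose product joins Gabrd in receptors of granule cells, had a difference of 1.16 on its brighter probe set beside -0.12 for Gabrd on L08496cds_s_at. Without SLA pool 1 these were 0.40 for Gabra4 and -0.07 for Gabrd. The difference between these 2 genes was not tested.

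**Figure D1:**
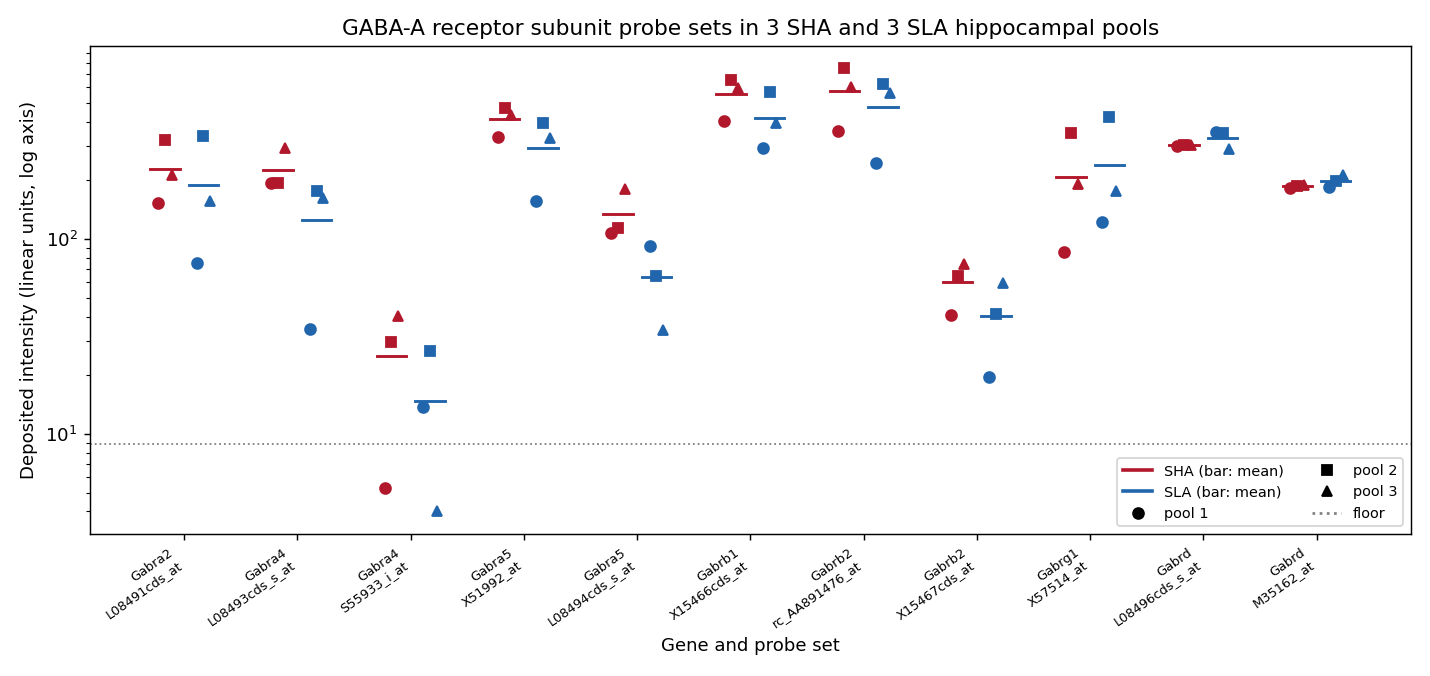
Deposited intensity (linear units on a log axis) of the 11 GABA-A subunit probe sets, with SHA pools in red and SLA pools in blue, a marker shape for each pool number and a bar at the mean of 3 pools. The SHA pools lie wholly above the SLA pools for L08493cds_s_at of Gabra4 and L08494cds_s_at of Gabra5, pool 1 is the lowest of both lines for 7 of the probe sets, and both Gabrd probe sets are nearly level. The dotted line is the floor of 8.9.

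Where the numbers are taken to pair the pools, the same differences stand against a smaller spread. With the pool number as a block, limma gave 4 members an unadjusted p under 0.05, against 345 of all probe sets tested (5.26%). Each of the 4 was higher in SHA, as were 149 of the 345, which is 2.27% of all probe sets tested. They were L08493cds_s_at of Gabra4 (limma, unadjusted p = 0.030), X51992_at of Gabra5 (unadjusted p = 0.030), L08494cds_s_at of Gabra5 (unadjusted p = 0.042) and Gabrb1 (unadjusted p = 0.035). The lowest adjusted p of a member was then 0.83, and no probe set on the array passed. Members were higher in SHA for 7 of 11 probe sets within number 1, 7 within number 2 and 10 within number 3. For all probe sets tested that share was 44.9%, 43.8% and 55.7% in the same order. The same 6 probe sets were higher in SHA in every number: both of Gabra5, both of Gabrb2, Gabrb1 and the brighter of Gabra4. The share of all probe sets tested that were higher in every number was not counted, so this 6 has no background beside it. Leaving out pool 1 of each line, an alternative added once the data had been seen, gave differences of 0.49 for Gabra4 on L08493cds_s_at, 1.61 and 0.33 for Gabra5 on L08494cds_s_at and X51992_at, and 0.41 for Gabrb1.

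**Figure D2:**
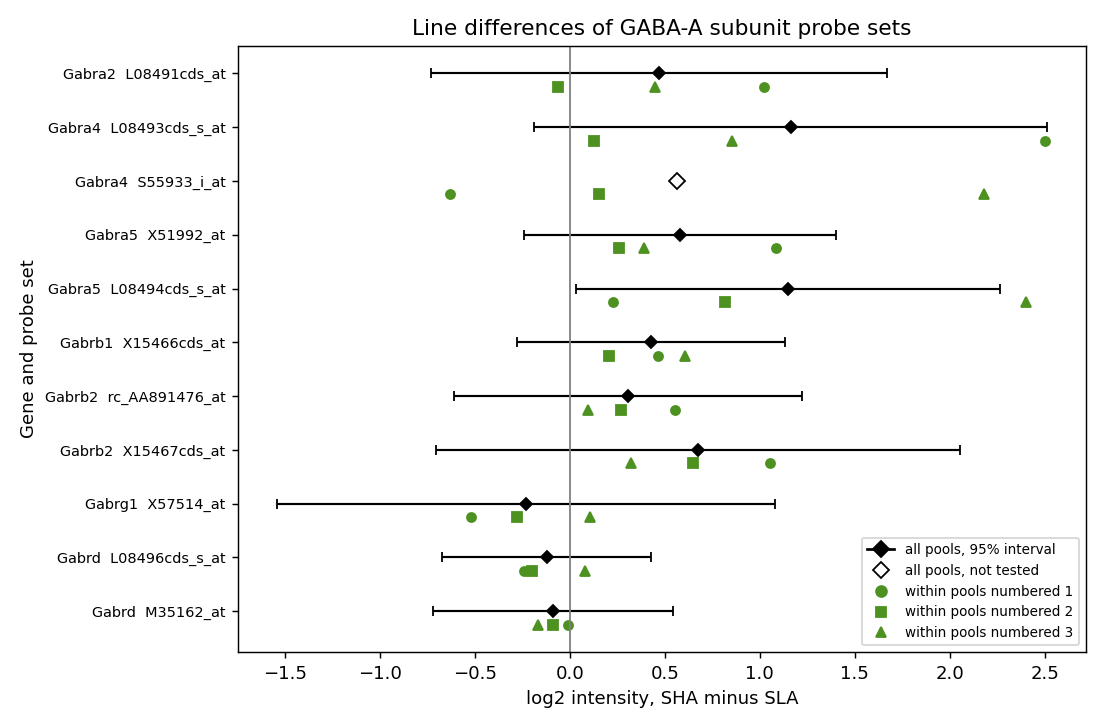
Difference of each GABA-A subunit probe set (log2 intensity, SHA minus SLA), with black diamonds for all pools and bars for the 95% interval, an open diamond for the probe set not tested, and green markers for the difference within pools of 1 number. The interval leaves out 0 for L08494cds_s_at of Gabra5 alone, before adjustment over all probe sets, and the widest difference within a number is 2.50, at number 1 for L08493cds_s_at of Gabra4.

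Ranked by signal within each array, the members brightest and dimmest on average held nearly the same ranks in each pool, and those between mixed. The order is of probe set signals, which depend on the probes as well as on the transcript, and is not one of transcript amounts. On the mean log2 scale it ran Gabrb2 (rc_AA891476_at), Gabrb1, Gabra5 (X51992_at), Gabrd (L08496cds_s_at), Gabrg1, Gabrd (M35162_at), Gabra2, Gabra4 (L08493cds_s_at), Gabra5 (L08494cds_s_at), Gabrb2 (X15467cds_at) and Gabra4 (S55933_i_at). Gabrb2 was the brightest member in 4 of 6 pools, Gabrb1 in SHA pool 1 and Gabrd in SLA pool 1. Gabrb1 ranked 1 or 2 in each pool, and S55933_i_at ranked 11 in each. On its array Gabrb1 stood between the 77.9th and the 88.3rd percentile of probe sets other than controls, and L08493cds_s_at of Gabra4 between the 27.0th and the 76.9th. Neighbours in the middle were not separated: Gabrg1 exceeded M35162_at of Gabrd in 3 of 6 pools, and that probe set exceeded Gabra2 in 3 of 6. Averaged by line, L08493cds_s_at of Gabra4 ranked 5 in SHA and 8 in SLA, while Gabrg1 ranked 8 in SHA and 5 in SLA. The other 9 members held the same rank in both lines or moved by 1.

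**Figure D3:**
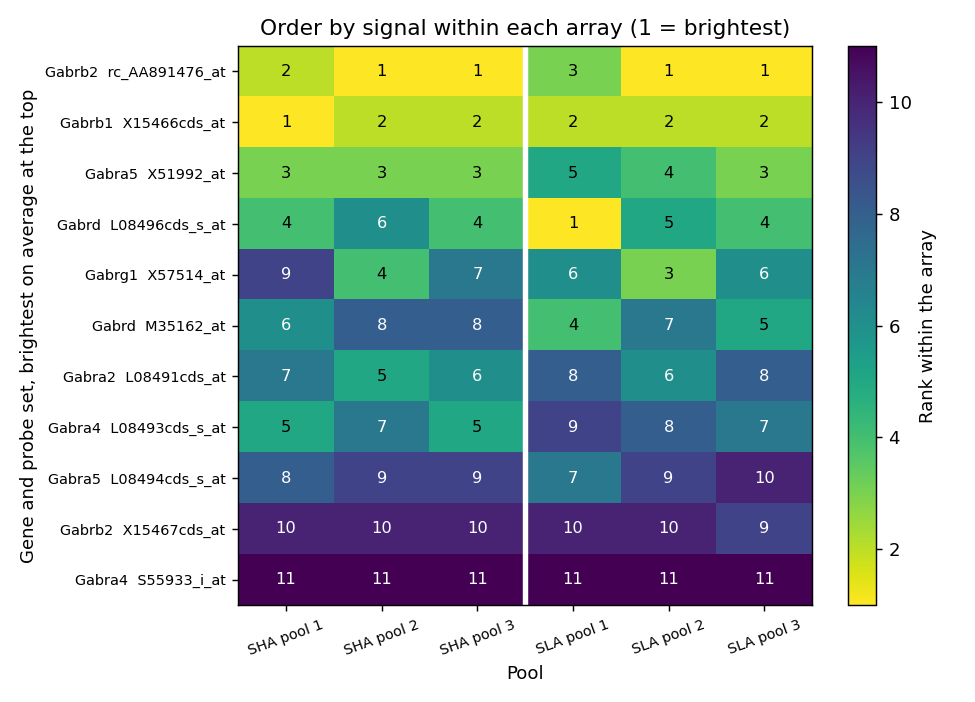
Rank of each GABA-A subunit probe set by deposited intensity within each array (1 is the brightest of 11), with the SHA pools to the left of the white line and the SLA pools to its right. The top 2 rows and the bottom 2 rows hold nearly the same ranks in each pool, L08496cds_s_at of Gabrd is brightest in SLA pool 1, and Gabrg1 ranges from 3 to 9.

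Of 12 further subunit genes listed, 4 had a tested probe set (Gabra3, Gabra6, Gabre and Gabrr1). On the brightest probe set of each, 3 of the 4 were lower in SHA and 1 was higher, with a median difference of -0.72. Gabre, the epsilon subunit, read 24.0, 32.5 and 68.0 in SHA and 122.6, 77.7 and 103.2 in SLA. Its SHA pools lay wholly below its SLA pools, at 41.5 ± 23.3 against 101 ± 22.5, a difference of -1.40 ± 0.55 (limma, unadjusted p = 0.030, adjusted p = 1.00). SHA below SLA without overlap held for 3.65% of all probe sets tested. Gabrr1, a rho subunit known best from the retina, differed by -0.82 ± 0.56 with overlapping pools. Gabra3 differed by -0.62 ± 0.55 on L08492cds_s_at (-1.07 to -0.31 with single pools left out). On X51991_at it differed by -0.25 ± 0.60 (-0.70 to 0.06 with single pools left out). Gabra6, a subunit of cerebellar granule cells, differed by 0.23 ± 0.63 and read 62.6, 53.1 and 95.2 in SHA and 24.2, 83.4 and 97.9 in SLA. Without SLA pool 1 its difference was -0.41. Gabrg3, Gabrp, Gabrr2 and Gabrr3 lay under the filter on dim probe sets. Their means were between 14.6 and 22.5 in SHA and between 18.2 and 33.1 in SLA, with overlapping pools.

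Genes that make, carry and sense GABA outside these receptors showed no common direction. Of 21 listed, 15 were tested on their brightest probe set, with 9 higher and 6 lower in SHA and a median difference of 0.10. None had an unadjusted p under 0.05. Abat, the enzyme that breaks GABA down, read 133.8, 165.8 and 219.4 in SHA and 44.7, 160.3 and 97.5 in SLA, and SLA pool 1 was again the lowest. Its difference was 0.93 ± 0.50, and 0.44 without SLA pool 1. Aldh5a1, the next enzyme of that route, read 119 ± 13.1 in SHA and 73.6 ± 15.0 in SLA, with SHA pools wholly above (0.71 ± 0.40). Gad1, which makes GABA, differed by 0.57 ± 0.43, and by 0.050 without SLA pool 1. Gabbr1, a subunit of the metabotropic GABA-B receptor, read 501.7, 601.2 and 440.7 in SHA and 732.4, 632.4 and 740.7 in SLA, with SHA wholly below (-0.46 ± 0.23). Slc6a11, a GABA transporter, differed by -0.19 ± 0.30, and Slc12a2, a chloride importer, by -0.14 ± 0.32 (0.048 without SLA pool 2). With the pool number as a block 3 of the 15 had an unadjusted p under 0.05, beside 5.26% of all probe sets tested, namely Gad1 (limma, unadjusted p = 0.025), Abat (unadjusted p = 0.035) and Gabbr1 (unadjusted p = 0.034).

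**Figure D4:**
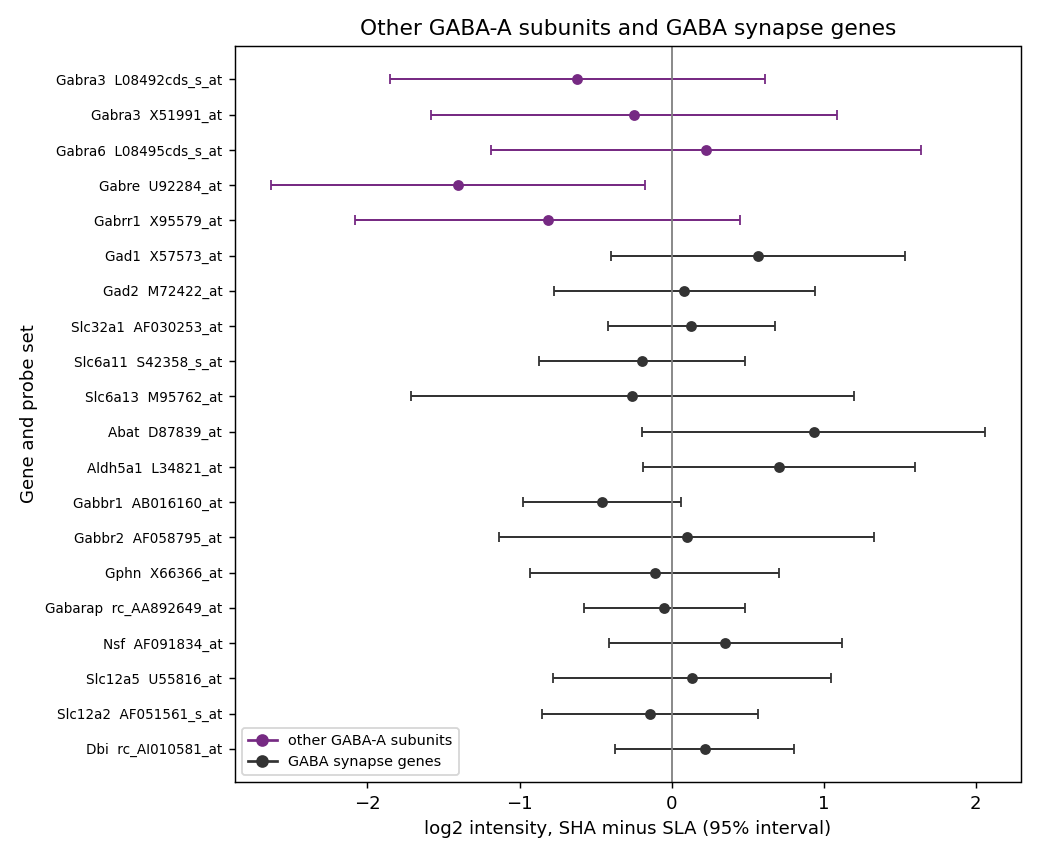
Difference (log2 intensity, SHA minus SLA, with 95% intervals) of the 5 tested probe sets of other GABA-A subunits in purple and of 15 GABA synapse genes in grey. The interval of Gabre alone leaves out 0 before adjustment, at a difference of -1.40.

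The cell makeup of the pools was read from marker genes, and fewer cells of a type and less RNA per cell cannot be told apart in such tissue. Of 11 listed markers of hippocampal granule and pyramidal cells 7 were tested, with summed intensities of 7654 to 10061 in SHA and 6752 to 9106 in SLA. The other 4 (Prox1, Dsp, Neurod6 and Slc17a7) had no tested probe set. The highest hippocampal marker was Nrgn, at 6460 in SHA and 6063 in SLA. The 10 interneuron markers summed to 4482 to 5801 in SHA and 3516 to 4995 in SLA, lowest in SLA pool 1. Singly, SLA pool 1 was the lowest for Gad1, Slc32a1, Vip, Calb2 and Tac1. It was not the lowest for Gad2, Sst, Npy or Cck, and it was the highest of the 6 pools for Pvalb (361.5). Calb1, a calcium buffer of granule cells and some interneurons, read 507.9, 648.5 and 604.4 in SHA and 169.7, 512.4 and 506.9 in SLA. Of the 7 granule and pyramidal cell markers, SLA pool 1, lowest for 6 members, was also lowest for Calb1, Neurod1 (94.4) and Itpka (700.5). SLA pool 1 was not the lowest for Nrgn, Camk2a, Neurod2 or Grin1. For Nrgn and Camk2a it read 7087.5 and 314.9, each the second highest of the 6 pools. It had the highest sum of 6 oligodendrocyte markers, 26386 against 14550 to 21543 in the other pools, of which Mbp alone gave 17566.5, while Ugt8 was lowest there at 274.5. Astrocyte markers (8 of 9 tested) summed to 23209 to 26366 in SHA and 20613 to 24448 in SLA. Microglia markers (5 of 8 tested) summed to 513 to 616 in SHA and 842 to 1079 in SLA, and each of the 5 was lower in SHA. Choroid plexus markers (4 of 7 tested) summed to 898 to 1023 in SHA and 964 to 1133 in SLA, and markers of neighbouring regions (4 of 11, Gabra6 among them) to 332 to 487 in SHA and 407 to 489 in SLA. The microglia sum was the only one of 7 marker sums that separated the lines (two-sided exact permutation test, p = 0.1, the smallest that 3 pools against 3 allow, adjusted p = 0.88 over 11 array measures). Of 44 marker probe sets, 1 had a pool at the floor, that of Aqp4, an astrocyte water channel, with 5.1 in SLA pool 1. Higher in SHA on average were 6 of 7 granule and pyramidal cell markers, 9 of 10 interneuron markers and 6 of 8 astrocyte markers. The same held for 2 of 6 oligodendrocyte markers, 1 of 4 choroid plexus markers and 1 of 4 markers of neighbouring regions. A lean toward SHA was therefore not particular to the subunits. The part of these markers in the subunit differences was not tested.

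The gene whose profile over the 6 pools was nearest to each member was found among tested probe sets with 1 gene name, by the root mean square distance between log2 values centred on their means. On each member's brightest probe set these were Dnaja2 for Gabra2 (distance 0.12), Mthfd1 for Gabra4 (0.15), Slc25a11 for Gabra5 (0.09), Arl3 for Gabrb1 (0.09), Vmp1 for Gabrb2 (0.09), Arhgef7 for Gabrg1 (0.18) and Rps6kb1 for Gabrd (0.06). The median distance to all other genes lay between 0.47 for Gabrd and 1.08 for Gabra4. Mthfd1, nearest to Gabra4, read 146.6, 133.4 and 181.3 in SHA and 21.4, 143.2 and 125.6 in SLA, with the same low SLA pool 1. With 6 pools and 6555 probe sets, close profiles occur for any gene, so these names are a description of these arrays only.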

How the data were processed

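Hippocampal RNA from 3 SHA and 3 SLA pools was measured on 6 one-colour arrays, and groups and pool numbers came from the sample titles. The deposited values are intensities on a linear scale, 1 to a probe set. Their 2%-trimmed mean was 250.3 to 250.4 on each array, so arrays had already been scaled. The software was not given in the sources used here, and depth does not apply: the number of arrays limits precision.

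The 59 control probe sets were left out. Values under the 10th percentile of the remaining 8740 (8.9) were set to it, log2 was taken, and the dimmest 25% by mean were dropped, leaving 6555. The floor took in 4.95% to 15.9% of the values per array. SHA was set against SLA by a two-sided limma fit (3.58.1, R 4.3.3, lmFit and eBayes with a trend on intensity), adjusted by Benjamini-Hochberg, and array measures with exact permutation tests in scipy 1.17.1. Steps were tested on simulated data. Symbols came from the platform annotation, updated by gene number through RefSeq's table (6985 of 7006 matched).

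The main fit held no term for the pool number. Only in the alternative with the number as a block were pools of equal number taken as paired. Their correlations each exceeded 0.1 (0.44, 0.68, 0.13). This pairing comes from the data, in which SHA pool 3 also correlated with SLA pool 1, at 0.16, above its own number. Arrays correlated at 0.779 to 0.963, so none was a duplicate.

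Members, lists and tests were chosen with earlier results of these data known. Named were every member probe set, each measured other subunit, 3 GABA synapse genes of smallest p per direction, and the nearest profile of each member. Gad1, Gad2 and Slc32a1 stood in both the GABA synapse and the interneuron list. Gabra6 stood in the lists of other subunits and of neighbouring regions. From the marker lists Calb1, Nrgn, Camk2a, Neurod1, Neurod2, Itpka and Grin1 were named because a statement turns on them. The same holds for Aqp4, Mbp, Ugt8, Prox1, Dsp, Neurod6, Slc17a7 and the interneuron markers. Alternatives were quantile normalization, median centring, other floors and filters, eBayes without a trend or robust, array weights, the block, and leaving out each pool.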

Additional observations from a re-analysis of the deposited data

How the results depend on the processing

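The difference of each member probe set was recomputed under 17 alternatives, except that X15467cds_at of Gabrb2 has no value with the dimmer 50% left out, and that S55933_i_at, not tested, enters as the difference of its means without a fit. Of these, that without both pools numbered 1 was added once the data had been seen. Of 186 values 181 kept their direction, and 5 reversed. None was past an adjusted p of 0.05 in any setting, so the side of that threshold does not tell settings apart. Changes at the unadjusted p are counted below. Without SLA pool 1 the difference was -0.066 for Gabra2 and -0.12 for Gabrb2 on rc_AA891476_at. It was 0.010 for Gabrd on L08496cds_s_at when arrays were weighted, a setting that also gave 0.0020 for Gabrb2 on rc_AA891476_at, 0.16 on X15467cds_at, 0.60 for Gabra4 on L08493cds_s_at and 1.75 for Gabra5 on L08494cds_s_at. For Gabrg1 leaving out SHA pool 1 gave 0.30, and leaving out SLA pool 2 gave 0.28. Over all pools left out singly, values ran from -0.066 to 1.01 for Gabra2, from -0.12 to 0.61 for Gabrb2 and from -0.71 to 0.30 for Gabrg1. The cause was not tested for any of these or of the counts below. In limma no probe set passed an adjusted p of 0.05 under any of the 17, while 98 had an unadjusted p under 0.05. Array weights gave 354, the replicate block 345, dropping the filter 203 and removing the dimmer 50% of probe sets 63. Leaving out single pools gave 57 to 152, with 62 for SHA pool 1, 57 for SLA pool 3 and 152 for pool 2 of either line. Among members the count of 1 was 4 with the replicate block, 0 when the filter was dropped and 0 to 1 over single pools left out. It was 0 for each SHA pool and SLA pool 3, Gabra5 on L08494cds_s_at without SLA pool 1, and Gabra4 on L08493cds_s_at in its place without SLA pool 2. Member probe sets whose lines did not overlap, 2 with all pools, were 2 to 6 over single pools left out (6 for SHA pool 1, 4 for SLA pool 2) and 7 without both pools numbered 1. Over all probe sets that count of 371 was 710 to 1030 and 1588 in the same settings, where fewer pools overlap less often by construction. The pool number as a block changed no call at the adjusted threshold. Array weights gave SLA pool 3 a weight of 5.03 and SLA pool 1 one of 0.37. Signal over background limits the dimmest member, S55933_i_at, with 2 pools at the floor.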
